A study of Homo sapiens with 27 samples.

Results

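The genes described here are 37 human protein-coding genes that each span 300 kb or more of the genome, followed by RNA Frac-Seq in cells depleted of TPR, a protein of the nuclear basket. They were taken by symbol from the 34464 genes of the deposited FPKM file, and all 37 were found. In GENCODE release 44 placed on build GRCh37, their gene spans ran from 317.3 kb (EXT1) to 1504 kb (FHIT), with a median of 629.3 kb. Of these genes, 36 had a mean above 1 FPKM (fragments per kilobase of transcript, scaled to the fragments of the library) and were analysed, and NBEA, at 0.663 FPKM, was not. Another 433 analysed protein-coding genes span 300 kb or more, and serve as the nearest comparison among the 14611 genes analysed.

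U2OS, a human osteosarcoma cell line, received 1 of 3 lentivirally delivered shRNAs for 5 days. These were a control shRNA or the shRNAs TPR A and TPR D, both against TPR. Cells were pre-treated with hexadimethrine bromide for the infection and selected with puromycin. Each shRNA had 3 replicate cultures. From each culture, 10% of the cells gave a total library and the remaining 90% were split with detergent into a cytoplasmic/ER and a nuclear library of poly(A)+ RNA, which makes 27 libraries. All cells were of 1 line, and the knockdown was not complete. TPR mRNA in total RNA was at 26.1 ± 1.95 FPKM (SD, n = 3) in control, 4.30 ± 0.675 (SD, n = 3) in TPR A and 4.86 ± 1.46 (SD, n = 3) in TPR D cultures. Of the markers of mesenchyme and bone, VIM, SPARC, RUNX2, FN1, COL1A1 and ALPL all had medians above 2 FPKM in total RNA, with ALPL lowest at 2.23. ALB, a liver marker, stayed at or below 0.0129 and PTPRC, a leukocyte marker, at or below 1.26. EPCAM, an epithelial marker, lay between 2.80 and 7.19. It was thus not absent, and its median of 4.39 was above that of ALPL.

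In a gene of this size most of the primary transcript is intron. RNA polymerase needs hours to cross it, the introns are removed while transcription goes on, and the spliced mRNA can be as short as that of a small gene. Several of these genes lie in common fragile sites, where replication is easily disturbed and deletions arise in tumours. FHIT and WWOX are the best known of them, and IMMP2L is another. TPR sits on the nuclear face of the pore, where mRNAs pass on their way to the cytoplasm. The study asked which mRNAs need TPR to leave the nucleus, and its readout was the N/C ratio, the nuclear level over the cytoplasmic/ER level.

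The mRNA of the reference transcript, the coding transcript with the longest coding sequence, took up a median of 0.960% of the gene span in the 37 genes, against 9.45% in the 12333 analysed protein-coding genes with such a transcript. The coding sequences ran from 441 nt in FHIT to 12066 nt in VPS13B. On GRCh37, FHIT lies at chr3:59733003-61237133, WWOX at chr16:78133297-79246564, IMMP2L at chr7:110302700-111202573, MAGI1 at chr3:65339200-66024593, UTRN at chr6:144606471-145174170 and TCF12 at chr15:57210821-57591479. The longest intron had a median length of 141.4 kb and reached 523.7 kb in IMMP2L and 522.7 kb in FHIT. Shorter transcripts of the same genes are annotated as well. In 25 of the 37 genes the median transcript spans 300 kb or more, while it spans 69.0 kb in TCF12 and 82.2 kb in UTRN, so that a value in FPKM need not stem from the full-length transcript.

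The longest intron of each gene opens at a 5′ splice site, the sequence that U1 snRNP recognises. The sites of the fragile-site genes FHIT, WWOX and IMMP2L and of the genes with the lowest N/C change, UTRN, TCF12 and MAGI1, are shown on the strand of the gene, with the first 6 bases of the intron in capitals after 6 exon bases.
FHIT, intron 5, chr3:60522579-60522598, minus strand: caggacGTATCCtttctttt
WWOX, intron 5, chr16:78198181-78198200, plus strand: gaatggGTAAGTgcttgact
IMMP2L, intron 3, chr7:111127280-111127299, minus strand: attggtGTAAGTaactcaga
MAGI1, intron 1, chr3:66023657-66023676, minus strand: gacaagGTAAGGcagggcgc
UTRN, intron 2, chr6:144613038-144613057, plus strand: gatctgGTAGGTaaaggaag
TCF12, intron 3, chr15:57213291-57213310, plus strand: gatcagGTAAGAtgatgtct
The letters GTAAGT, searched on the gene's strand at the first intron bases only, stood at 12 of the 37 sites (32.4%) and at 2519 of 18648 longest introns of all protein-coding genes (13.5%). All 37 sites began with GT, as did 98.95% of those of all genes. The letters describe the window and were not tied to any measurement of splicing.

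A pair of libraries went against their labels. The nuclear library labelled control replicate 2 held 21.8% mitochondrial RNA, against 0.774% to 2.42% in the other 8 nuclear libraries, and its profile correlated across genes at 0.976 with the mean of the total and 0.944 with the mean of the nuclear libraries. The total library labelled control replicate 2 held 0.738%, against 15.8% to 24.7% in the other 8, and its correlation was 0.972 with the nuclear mean and 0.940 with the total mean. Both were kept under their labels. The main counts, the medians by gene span and role and the main N/C changes are also given without this culture. One FPKM on 1 kb of transcript stood for about 41.8 to 90.3 reads in total, 46.3 to 62.5 in nuclear and 32.7 to 49.2 in cytoplasmic/ER libraries. FHIT, the lowest analysed gene, thus had about 83 to 344 reads per library, and UTRN in the cytoplasmic/ER fraction about 356 to 2569. All read numbers here take the mRNA length of the reference transcript, less 260 nt, as the length of the gene. They can be too high where the RNA came from shorter transcripts.

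In control cells, the mRNAs of these genes lay towards the nucleus. The N/C ratio, as log2 of the nuclear over the cytoplasmic/ER level, was above 0 beyond the spread of the replicates in 15 of the 36 genes and below it in 0 (limma, adjusted p under 0.05). Over all genes, 20.2% were called higher and 19.2% lower. Without adjustment of the p-values, 18 of the 36 genes and 47.8% of all genes passed the same threshold. The median of the 36 genes was 0.47, and that of all genes -0.01. As FPKM are scaled to each library's total, the ratio compares shares of the poly(A)+ RNA of each fraction, and fewer cells and less RNA per cell cannot be told apart. Without the culture labelled control replicate 2, 9 of the genes (15.6% of all genes higher, 14.2% lower) were called and the median was 0.41. Without control replicate 1 the number was also 9 and the median 0.56, and within replicates 2 and 3 it was 10 and 0.56. The share of all genes called in either direction fell too, from 39.4% to 25.2% without control replicate 1 and 22.1% within replicates 2 and 3. Of the 25 genes whose median transcript spans 300 kb or more, 10 were called (5 without control replicate 2), with a median of 0.47. The other 433 genes of 300 kb or more had a median of 0.51, with 151 called higher and 30 lower.

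UTRN, which encodes utrophin, a large relative of dystrophin that links the cytoskeleton to the membrane, had the highest ratio. Its nuclear level in the control cultures was 27.6, 31.3 and 61.3 FPKM in replicates 1, 2 and 3, and its cytoplasmic/ER level 0.789, 1.06 and 4.29. Every nuclear library was thus far above every cytoplasmic/ER library. The log2 ratio was 4.51 (standard error 0.56, limma adjusted p = 7e-06), or 22.8-fold. MAGI1, a scaffold of tight junctions, followed with nuclear levels of 8.63, 8.44 and 7.09 FPKM and cytoplasmic/ER levels of 2.67, 1.44 and 2.41 in control cultures. These did not overlap either, and the log2 ratio was 1.88 (standard error 0.33, limma adjusted p = 0.00018).

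By role, the genes for adhesion, polarity and the cytoskeleton had 5 of 8 called nuclear, where 20.2% of all genes were. Beside UTRN and MAGI1 these were ERC1, a scaffold of the cell cortex, at 1.65, FNDC3B, a membrane protein with fibronectin domains, at 1.15, and PARD3, a polarity protein, at 0.63. Of the signalling enzymes 4 of 8 were called. TRIO, a guanine nucleotide exchange factor, stood at 1.65, the receptor tyrosine phosphatases PTPRG and PTPRK at 1.25 and 0.77, and DOCK1, an exchange factor for Rac, at 1.09. Among the genes of vesicle and Golgi traffic, VPS13B, a lipid transfer protein at the Golgi, reached 1.85, EXOC4 of the exocyst 0.91 and COG5 of the conserved oligomeric Golgi complex 0.73, which makes 3 of the 4 analysed. The remaining called genes were ATXN1, a regulator of transcription, at 0.85, DPYD, the first enzyme of pyrimidine breakdown, at 0.78, and CDKAL1, an enzyme that modifies tRNA, at 0.93. Without control replicate 2, FNDC3B, PARD3, DOCK1, PTPRK, COG5 and ATXN1 were no longer called. That left 3 of 8 adhesion genes, 2 of 8 signalling enzymes and 2 of 4 traffic genes.

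The genes for genome maintenance and tumour suppression had 0 of 4 called and a median of -0.36. FHIT, a hydrolase of dinucleoside polyphosphates, was at 1.23, 1.04 and 0.814 FPKM in the control nuclear and 2.31, 1.97 and 1.53 FPKM in the control cytoplasmic/ER libraries. All 3 cultures gave nearly the same log2 ratio, -0.85, -0.87 and -0.84, yet with the spread shared over all groups its standard error was 0.46 (limma adjusted p = 0.151). WWOX, an oxidoreductase with WW domains, had nuclear levels of 8.78, 6.46 and 6.21 FPKM and cytoplasmic/ER levels of 12.1, 12.3 and 8.67 in control cultures, which overlap narrowly. Its log2 ratio was -0.62 (standard error 0.27, limma adjusted p = 0.0706), and -0.47 without control replicate 2. With nuclear and cytoplasmic/ER libraries of all cultures paired by culture the limma adjusted p was 0.0185. RAD51B, which acts in homologous recombination, and SPIDR, a scaffold of that repair, had ratios of 0.24 and -0.10. IMMP2L, a peptidase of the inner mitochondrial membrane, had cytoplasmic/ER levels of 31.4, 33.2 and 17.9 FPKM beside nuclear levels of 25.4, 21.9 and 19.4, which overlap, and a log2 ratio of -0.26 (standard error 0.31). SMYD3, a lysine methyltransferase, stood at -0.37.

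MED13L, a Mediator subunit, at 1.06 (limma adjusted p = 0.0501) and TNIK, a kinase of Wnt signalling, at 0.79 (adjusted p = 0.0657) lay just past the threshold. The remaining genes had log2 ratios between -0.29 and 0.47, with limma adjusted p-values of 0.216 or more. Those below 0 were BCAS3, a regulator of cell migration, at -0.29 and CDK14, a cyclin-dependent kinase, at -0.11. EXT1, which elongates heparan sulfate chains, and SND1, a nuclease-domain protein that binds RNA, were at 0.13 and 0.18 and had means of 155 and 136 FPKM, so that only TCF12 was higher by level. FOXP1, a forkhead transcription factor, was at 0.22, ARHGAP10, a GTPase-activating protein, at 0.27, TCF12 at 0.30, APBB2, an adaptor of the amyloid precursor protein, at 0.32 and PRKCE, a protein kinase C, at 0.36. TBC1D5, a regulator of retromer, stood at 0.47.

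With nuclear and cytoplasmic/ER libraries paired by culture, TNIK (limma adjusted p = 0.00727) and MED13L (adjusted p = 0.0274) were also called nuclear and WWOX was called cytoplasmic. This made 17 genes nuclear and 1 cytoplasmic, 18 of 36, where the pairing called 47.0% of all genes (23.6% nuclear and 23.4% cytoplasmic). The pairing gave 0 calls in the N/C change below, as did the fit without it. NBEA, which was not analysed for its low level, had nuclear values of 0.828 to 1.09 FPKM and cytoplasmic/ER values of 0.225 to 0.399 in the control cultures, and these did not overlap.

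**Figure D1:**
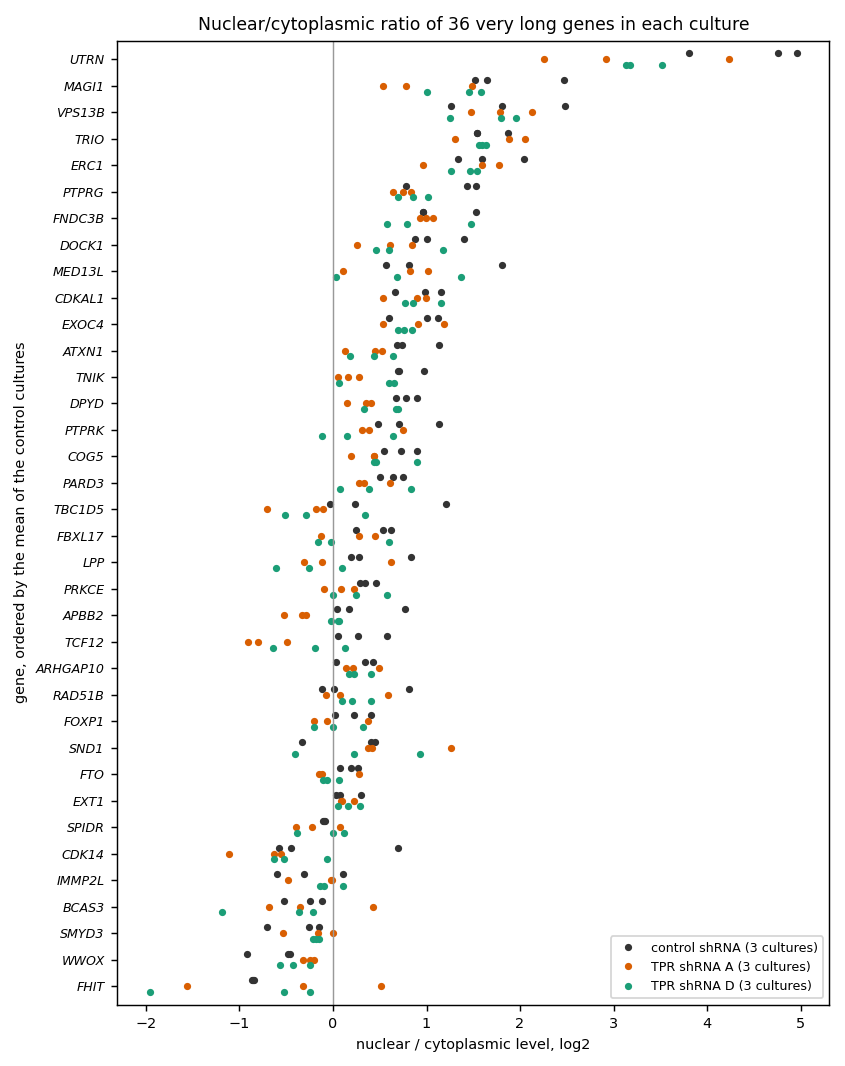
Each point is 1 culture, the horizontal axis is the log2 of the nuclear over the cytoplasmic/ER level, and the 36 genes are ordered by the mean of the control cultures. UTRN lies apart with 3.81 to 4.96 in control cultures, FHIT, WWOX and SMYD3 have the lowest control means, and points of the 3 shRNAs overlap in most genes.

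Among these genes the control N/C ratio was higher the longer the coding sequence, and did not rise with the length of the gene. Spearman's rho across the 36 genes was 0.790 for coding length, 0.655 for mRNA length and 0.638 for the number of exons, against -0.201 for gene span and -0.343 for the longest intron. Without UTRN the value for coding length was 0.772. The points share their libraries and are genes, not replicates, so the values describe this set only. In each of the 9 cultures the correlation with coding length was 0.571 to 0.791, and that with gene span -0.272 to -0.0824. Of the 10 genes with 4 kb or more of coding sequence all had a ratio above 0, with a median of 1.17, and 8 were called nuclear (5 without control replicate 2). Over all genes 20.2% were called nuclear (15.6% without control replicate 2). Most other genes of 300 kb or more with that coding length were called nuclear too, so the count is not particular to this set. The 2 genes with less than 1 kb, FHIT and IMMP2L, lay below 0, at -0.85 and -0.26. The other genes of 300 kb or more had a rho of 0.531 with coding length and 0.0427 with gene span, and over all analysed protein-coding genes these values were 0.565 and 0.385. Without control replicate 2, rho in the 36 genes was 0.744 with coding length, 0.519 with mRNA length and -0.223 with gene span.

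**Figure D2:**
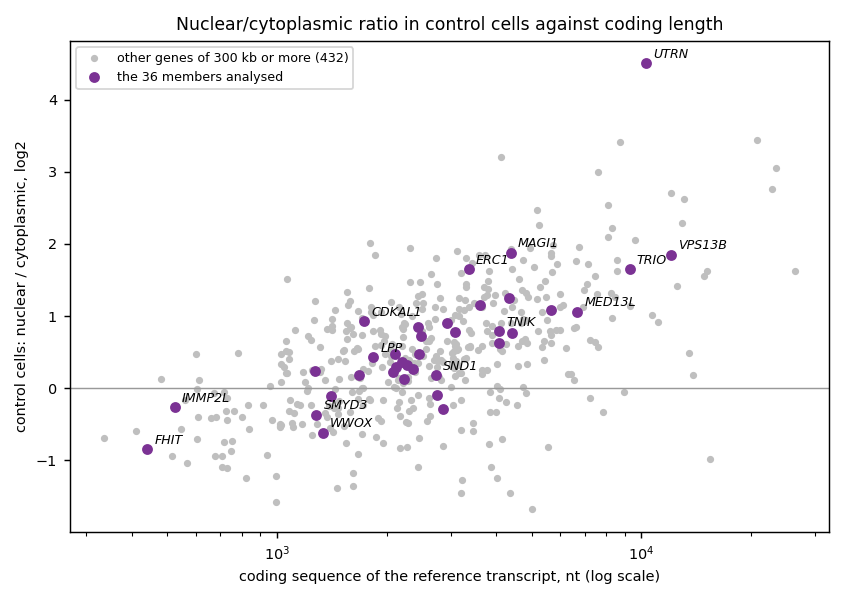
The log2 N/C ratio in control cells is plotted against the coding length of the reference transcript, on a log scale, for the 36 genes (purple) and 432 other genes of 300 kb or more with a reference transcript (grey). FHIT at 441 nt and IMMP2L at 525 nt lie below 0, and the 10 of the 36 genes with 4 kb or more lie above it, with UTRN at 4.51. Some of the other genes of that coding length lie below 0.

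After TPR depletion the median N/C ratio of these genes was lower, but in no single gene did the change exceed the spread between replicates by limma. In TPR A cells 8 and in TPR D cells 9 of the 36 genes were called nuclear and 0 cytoplasmic, where 15.2% and 17.1% of all genes were called nuclear and 13.2% and 14.6% cytoplasmic. The medians were 0.24 and 0.26. By culture, the median log2 N/C ratio of the 36 genes was 0.49, 0.68 and 0.45 in the controls, 0.14, 0.32 and 0.42 in TPR A and 0.17, 0.59 and 0.17 in TPR D cultures. TPR D replicate 2 lay among the controls, and the other 5 TPR-depleted cultures lay below all 3 of them.

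The N/C change, the ratio under a TPR shRNA minus that under the control shRNA, had 0 calls among the 36 genes for TPR A, TPR D or both, and 0.0% of the 14611 genes were called in any of the 3 comparisons. At an unadjusted p under 0.05, 0 of the 36 genes and 251 of all genes (1.72%) passed for both shRNAs together. That share is lower than a threshold of 0.05 would give with no change at all. The fit takes the nuclear and cytoplasmic/ER libraries of a culture as independent, although they correlated at 0.223 to 0.469. Its p-values for the N/C change can thus be too large, and 0 calls do not show that nothing changed. The 36 genes had a median change of -0.22 under TPR A, -0.21 under TPR D and -0.20 over both, beside 0.0 for all genes. TPR A and TPR D share their controls. For both shRNAs 28 of the 36 genes lay below 0 and 8 above. The other genes of 300 kb or more, with a median of -0.23, also lay more often below 0 than above. Leaving out each culture gave medians between -0.29 and -0.15, the latter without control replicate 2, and the values were -0.28 within replicate 1 and -0.17 within replicates 2 and 3. The other 433 genes of 300 kb or more had a median of -0.23, and of -0.15 without control replicate 2, close to those of the 36.

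Across the genome the change differed by gene span. Protein-coding genes under 10 kb had a median N/C change of 0.27 for both shRNAs, those of 10 to 50 kb 0.04, those of 50 to 100 kb -0.12 and those of 100 to 300 kb -0.22. Leaving out control replicate 2 gave 0.15, 0.0, -0.08 and -0.12. Those of 300 kb or more were at -0.23, and at -0.15 without this culture. Within the 36 genes rho of the N/C change with gene span was 0.113. With mRNA length it was -0.627, against -0.235 in the other genes of 300 kb or more and -0.514 in all analysed protein-coding genes. Leaving out that culture made the 3 values -0.390, -0.136 and -0.398. In control cells the medians of the N/C ratio ran from -0.54 under 10 kb to 0.51 in all genes of 300 kb or more, and from -0.40 to 0.43 without this culture.

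**Figure D3:**
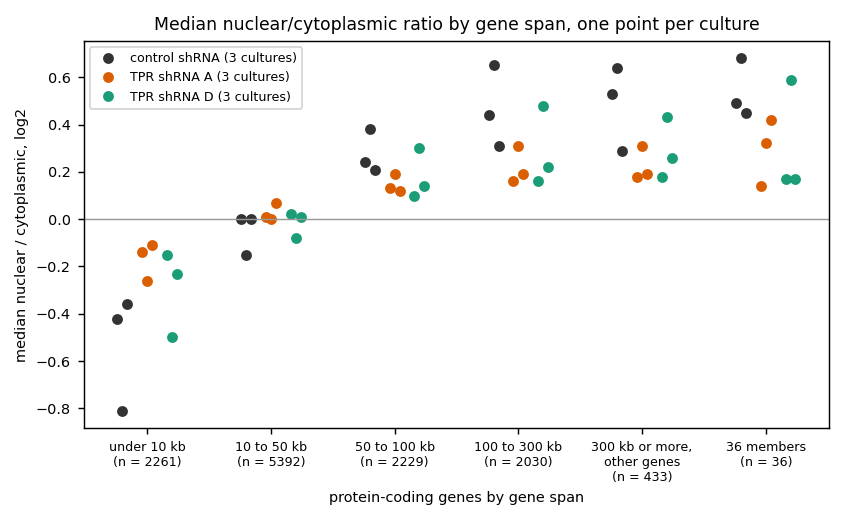
Each point is the median log2 N/C ratio of a class of protein-coding genes in 1 culture, for 5 classes of gene span and the 36 genes. In the shortest class the controls lie at -0.81 to -0.36 and the TPR-depleted cultures at -0.50 to -0.11, and among the 36 genes they lie at 0.45 to 0.68 and 0.14 to 0.59.

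The lowest N/C changes were those of UTRN, TCF12 and MAGI1, which are described here because they were lowest. The log2 N/C ratio of UTRN was 4.96, 4.76 and 3.81 in the control cultures, 2.26, 4.23 and 2.92 in TPR A and 3.13, 3.52 and 3.17 in TPR D cultures. One TPR A culture lay among the controls and the other 5 lay below them. The change was -1.31 (standard error 0.69, limma adjusted p = 0.999), and -1.18 without control replicate 2. Its nuclear level was 21.3, 21.3 and 29.2 FPKM in TPR A and 33.9, 21.1 and 28.6 in TPR D cultures, and its cytoplasmic/ER level 4.37, 1.04 and 3.78, and 3.79, 1.75 and 3.10. Both ranges overlapped with those of the controls.

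In MAGI1 the nuclear level was 4.40, 4.48 and 6.17 FPKM in TPR A and 6.47, 3.94 and 6.98 in TPR D cultures, all of them below the lowest control of 7.09. This rests on the labels of control replicate 2. Its total library, nearer the nuclear mean by profile, held MAGI1 at 6.33 FPKM, below the TPR D values of 6.47 and 6.98. Over all genes 3.24% had all 6 TPR-depleted nuclear libraries below the 3 controls, and FBXL17 was the other one among the 36 genes (2 of 36). The cytoplasmic/ER level of MAGI1 ranged from 1.25 to 3.55 FPKM in TPR-depleted cultures and overlapped with the controls. The N/C change was -0.74 (standard error 0.41, limma adjusted p = 0.999), and -0.45 without control replicate 2. The nuclear change itself was -0.59 (standard error 0.29, limma adjusted p = 0.427).

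TCF12, a basic helix-loop-helix transcription factor and the highest of these genes with a mean of 169 FPKM, had log2 N/C ratios of 0.27, 0.58 and 0.05 in control, -0.80, -0.49 and -0.91 in TPR A and -0.64, 0.13 and -0.19 in TPR D cultures. Only TPR D replicate 2 overlapped with the controls. The change was -0.78 (standard error 0.48, limma adjusted p = 0.999), and -0.64 without control replicate 2. Its level varied widely within groups, with total RNA at 286, 125 and 210 FPKM in the control cultures.

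Only ATXN1 and TNIK had all 6 TPR-depleted cultures below all 3 controls in the N/C ratio. That is 2 of 36 genes (5.56%), where 1.53% of all genes did so. None of the 36 had all 6 above the controls, against 3.07% of all genes. Both, like the other genes given library by library from here on that are neither fragile-site genes nor extremes, were picked after their values were seen. In ATXN1 the log2 ratio was 0.74, 1.13 and 0.68 in control, 0.13, 0.52 and 0.45 in TPR A and 0.18, 0.64 and 0.44 in TPR D cultures. The change was -0.45 (standard error 0.33, limma adjusted p = 0.999), and -0.32 without control replicate 2. Its cytoplasmic/ER level was 1.47, 1.38 and 2.16 FPKM in control, 3.47, 2.59 and 3.24 in TPR A and 3.62, 1.97 and 3.41 in TPR D cultures. TPR D replicate 2 overlapped with the controls, and the log2 change was 0.83 (standard error 0.23, limma adjusted p = 0.106). In TNIK the log2 ratios were 0.70 to 0.97 in control and 0.05 to 0.65 in TPR-depleted cultures, a change of -0.49 (standard error 0.41, limma adjusted p = 0.999) that was -0.40 without control replicate 2.

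LPP, a zyxin-family protein of focal adhesions, had nuclear levels of 18.3, 20.1 and 21.4 FPKM in control, 22.4, 35.7 and 39.3 in TPR A and 28.7, 23.2 and 21.98 in TPR D cultures. Its cytoplasmic/ER levels were 16.0, 11.3 and 17.6 in control, 24.2, 44.1 and 25.5 in TPR A and 26.9, 35.4 and 26.4 in TPR D cultures. All 6 TPR-depleted cultures were above the controls in both fractions, as were 2.97% of all genes in the nuclear and 2.5% in the cytoplasmic/ER fraction. The cytoplasmic/ER change of 1.01 (standard error 0.35) had a limma adjusted p of 0.222, and without TPR D replicate 1 it was 1.04 (standard error 0.23, limma adjusted p = 0.0445). Without control replicate 2 it was 0.82 (standard error 0.42, limma adjusted p = 0.592). In total RNA LPP did not separate, at 17.4, 15.4 and 21.6 FPKM in control, 28.4, 22.4 and 30.6 in TPR A and 5.71, 34.3 and 23.1 in TPR D cultures.

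**Figure D4:**
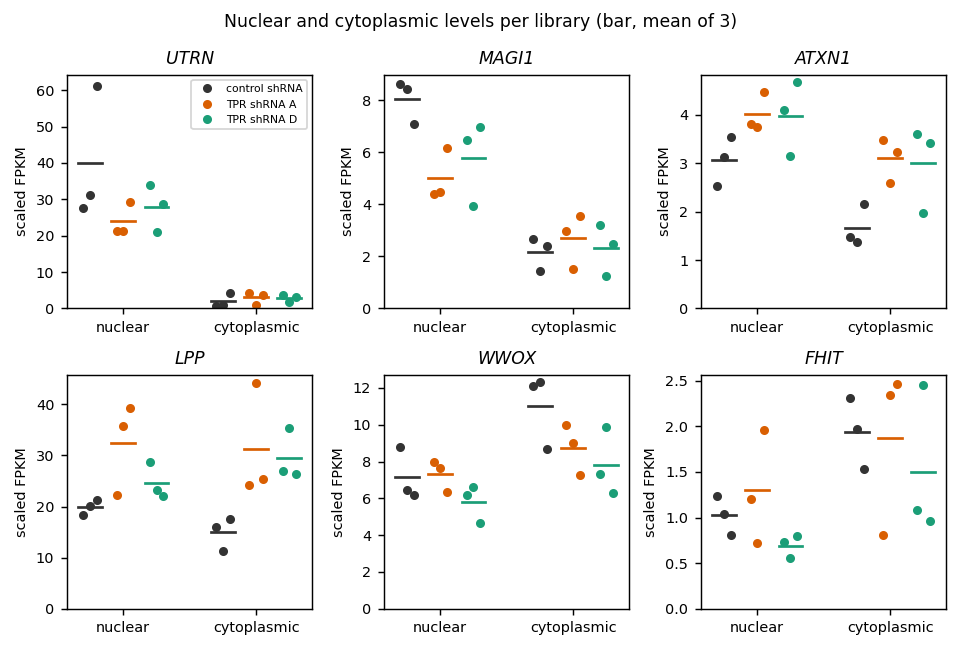
Scaled FPKM of 6 genes in each nuclear and cytoplasmic/ER library, with bars at the mean of 3 replicates. UTRN and MAGI1 lie mostly in the nuclear fraction, ATXN1 and LPP are higher in the cytoplasmic/ER fraction of most or all TPR-depleted cultures, and WWOX and FHIT overlap between the shRNAs.

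FHIT, WWOX and IMMP2L, named above as genes of fragile sites, had N/C changes above 0 that did not pass the test. The other genes of the set were not sorted by fragile site, so this does not describe fragile-site genes as a class. In WWOX the log2 ratio was -0.46, -0.92 and -0.48 in control, -0.32, -0.24 and -0.20 in TPR A and -0.24, -0.57 and -0.43 in TPR D cultures, with 5 of 6 TPR-depleted cultures above -0.46. The change was 0.29 (standard error 0.33), and with SND1 at the same rounded value it stood highest of the 36 genes. Its limma adjusted p was 0.999 and its exact permutation p 0.0595 (2-sided, 84 splits of the cultures, smallest possible p 0.0119). Without control replicate 2 the change was 0.13 and the exact p 0.286. Exact p-values under 0.05 came from ATXN1 (0.0119), UTRN (0.0238), MAGI1, TCF12 and TNIK (0.0357 each), and PTPRG and APBB2 (0.0476 each). All of them had changes below 0, and the other genes had exact p-values of 0.0595 or more. Without control replicate 2 their exact p-values were 0.0714 to 0.179. These values were not adjusted. The test was not run over all genes, so no share of all genes can be set beside the number of genes that passed. In FHIT the TPR-depleted cultures ran from -1.96 to 0.51 around controls at -0.87 to -0.84, and the change of 0.17 (standard error 0.57) became -0.07 without TPR A replicate 1. IMMP2L had log2 ratios of -0.60 to 0.11 in control and -0.48 to 0.11 in TPR-depleted cultures, and a change of 0.16 (standard error 0.37) that became -0.01 without control replicate 2. SND1 had 0.45, -0.33 and 0.41 in control, 0.37, 0.42 and 1.26 in TPR A and 0.93, -0.41 and 0.23 in TPR D cultures, a change of 0.29 (standard error 0.57) that became 0.03 without control replicate 2.

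By role, the median N/C change for both shRNAs was -0.43 in the 8 signalling enzymes, -0.36 in the 8 genes of adhesion, polarity and the cytoskeleton, -0.19 in the 7 of transcription and RNA, -0.18 in the 4 of vesicle and Golgi traffic, -0.06 in the 5 other enzymes and 0.08 in the 4 of genome maintenance. When control replicate 2 was left out these medians were -0.19, -0.24, -0.08, -0.20, -0.20 and 0.05. All 8 adhesion genes lay below 0, from -1.31 to -0.10, as did most genes of the whole set. Without this culture 7 of 8 did so, when FNDC3B was at 0.01. None of any role was called.

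A list of 15 factors known for transcription or RNA processing of long genes held the topoisomerases TOP1, TOP2A and TOP2B, the kinases CDK12 and CDK13 with their cyclin CCNK, SFPQ, the U1 snRNP proteins SNRNP70, SNRPA and SNRPC, the methyltransferase SETD2 and the elongation factors SUPT5H, SUPT6H, CTR9 and PAF1. Of these, 9 were called nuclear in control cells, where 20.2% of all genes were, and 11 without control replicate 2. In the N/C change 0 of 15 were called (0.0% of all genes), with a median of -0.06, or -0.16 without control replicate 2. In total RNA 0 were called for both shRNAs (1.14%), and the median was -0.29, or 0.04 without control replicate 2.

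In total RNA, TPR depletion moved few of these genes beyond the replicate spread. For TPR A 0 of 36 were called (0.821% of all genes), also with the replicate number as a block. For TPR D 1 of 36 was called, FTO, which was lower (0.753% of all genes were called in either direction, 0.438% lower). For both together 0 were called (1.14% of all genes). At an unadjusted p under 0.05, 3, 6 and 4 of the 36 genes passed, where 12.6%, 14.6% and 16.1% of all genes did. The medians were -0.14, -0.19 and -0.18, beside -0.01 for all genes in each comparison and 0.02, -0.01 and 0.01 for the other genes of 300 kb or more. They depended on single cultures. For TPR A the median ran from -0.19 without control replicate 2 to 0 without TPR A replicate 2. For both shRNAs it ran from -0.23 without control replicate 2 to -0.08 without control replicate 3, and the other genes of 300 kb or more were at -0.09 without control replicate 2.

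FTO, an RNA demethylase, was at 29.6, 39.2 and 33.3 FPKM in the control, 27.2, 24.5 and 29.4 in the TPR A and 14.8, 22.04 and 21.5 in the TPR D total libraries. The TPR D libraries were lowest, and the highest TPR A library lay just under the lowest control. For TPR D the log2 change was -0.82 (standard error 0.18, limma adjusted p = 0.0361). The call was lost when any culture other than control replicate 3 was left out, with adjusted p-values of 0.059 to 0.191, and the change ran from -0.92 to -0.63. Without TPR D replicate 1 it was -0.63 and without control replicate 2 it was -0.71. In the nuclear fraction FTO was at 30.9, 31.2 and 43.6 FPKM in control, 26.1, 29.5 and 35.5 in TPR A and 23.7, 21.6 and 23.9 in TPR D cultures, and for both shRNAs the change was -0.40 (standard error 0.16, limma adjusted p = 0.300).

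EXOC4 was the other gene with all 6 TPR-depleted total libraries below the controls (2 of 36 beside 2.98% of all genes, with 0 above the controls beside 3.94%). It was at 15.7, 27.2 and 21.6 FPKM in control, 10.7, 10.9 and 14.4 in TPR A and 10.3, 13.5 and 14.9 in TPR D cultures. Its change for both shRNAs was -0.77 (standard error 0.25, limma adjusted p = 0.135), and -0.58 without control replicate 2. COG5 was at 26.9, 30.7 and 31.3 FPKM in control, 27.9, 21.7 and 30.6 in TPR A and 9.64, 19.9 and 19.2 in TPR D cultures, so the TPR D libraries lay below all others. For TPR D its change was -0.93 (standard error 0.23, limma adjusted p = 0.0589). ATXN1 had the highest change, with total RNA at 3.53, 2.40 and 4.25 FPKM in control, 4.77, 5.02 and 6.53 in TPR A and 3.91, 5.67 and 6.65 in TPR D cultures, where 1 TPR D culture overlapped with the controls. For both shRNAs it was 0.68 (standard error 0.23, limma adjusted p = 0.149), and 0.45 without control replicate 2. FBXL17, an adaptor of a ubiquitin ligase, had nuclear levels of 2.81, 3.03 and 2.95 FPKM in control, 1.97, 1.85 and 2.55 in TPR A and 1.26, 0.893 and 1.29 in TPR D cultures. All 6 lay below the controls, and the nuclear change was -0.88 (standard error 0.25, limma adjusted p = 0.128). The separation rests on the labels of control replicate 2. Its total library, nearer the nuclear mean by profile, held FBXL17 at 2.205 FPKM, below the TPR A value of 2.55.

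**Figure D5:**
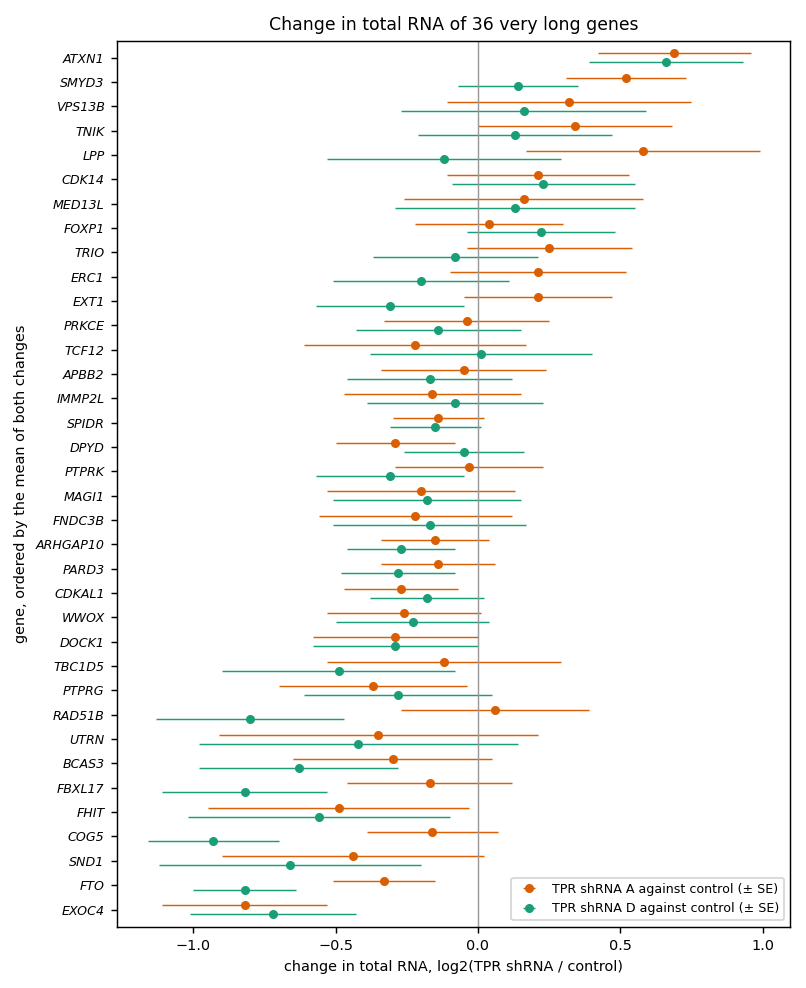
The log2 change in total RNA with its standard error is shown for each of the 36 genes and each TPR shRNA, ordered by the mean of both. EXOC4 and FTO lie lowest and ATXN1 highest, and for COG5, RAD51B and FBXL17 the TPR D point lies well below that of TPR A.

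A single library bears on the TPR D values. In the total library of TPR D replicate 1, 33 of the 36 genes were below their mean in the other total libraries, with a median deviation of -0.71 on the log2 scale, where the median over all genes was -0.02. In the other 8 total libraries the median deviation of the 36 genes was -0.21 to 0.30. The other genes of 300 kb or more were at -0.33 and protein-coding genes under 10 kb at 0.24 in that library. In it, 23 of the 36 genes were below both the nuclear and the cytoplasmic/ER library of the same culture (34.7% of all genes), and in the other 8 cultures 4 to 12 were. RAD51B, for example, was at 10.3 FPKM there and at 32.9 and 34.3 in the other TPR D total libraries, and UTRN at 10.5 beside 31.0 and 33.8. The median total change for TPR D was 0.01 without this culture, -0.77 in replicate 1 alone and -0.03 in the remaining replicates. Its nuclear and cytoplasmic/ER libraries had median deviations of -0.03 and 0.22. What set this library apart was not tested.

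By fraction, the median change of the 36 genes for both shRNAs was -0.17 in the nuclear and 0.09 in the cytoplasmic/ER libraries, with 0 calls in each (0.808% and 0.643% of all genes). At an unadjusted p under 0.05, 3 genes passed in the nuclear fraction (11.8% of all genes) and 4 in the cytoplasmic/ER fraction (11.4%). The median in the cytoplasmic/ER fraction was -0.04 without control replicate 2 and -0.03 within replicates 2 and 3.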

How the data were processed

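U2OS cultures (27 libraries, 9 groups of 3) were read as poly(A)+ RNA. The authors quantified reads with Salmon on Gencode 19 protein-coding and lncRNA transcripts (hg19), summed them to genes with tximport and deposited FPKM. Tool versions are not given in the sources used here. Gene IDs were matched to GENCODE 44 on GRCh37 (32776 of 34464). Only genes whose mean exceeded 1 FPKM entered, without the 13 mitochondrial ones. Libraries were scaled by median-of-ratios factors (0.954 to 1.06), and log2(FPKM + 0.1) was fitted with limma 3.58.1 in R 4.3.3 over all 27 libraries (eBayes with trend). P-values were adjusted by Benjamini-Hochberg over 14611 genes, with a threshold of 0.05. A fold change is thus on the log2(FPKM + 0.1) scale and understates changes of low genes. DESeq2, named in the authors' methods, needs counts and was not run. Levels printed are FPKM after scaling, except means over all libraries, which are as deposited. Low values of genes with 1 transcript moved in steps of 1 read, which gave each library's depth (85.6% to 87.8% within 0.1 of a whole read). Estimates of reads cover counting error only.

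The N/C ratio of WWOX was also compared by culture with a 2-sided exact permutation test. The fit was tested on simulated data. Deviations of control and TPR A total libraries of the same replicate number correlated at 0.324, 0.184 and 0.137, so the total change for TPR A was also fitted with the replicate number as a block. Nuclear and cytoplasmic/ER libraries of 1 culture correlated at 0.223 to 0.469.

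The 37 genes and all lists were chosen with earlier results of these data known. Genes given library by library were the 3 with the highest and the 3 with the lowest N/C change for both shRNAs, genes called in any change, FHIT, WWOX and IMMP2L, the lowest and highest by level, and a few picked after their values were seen. PECAM1, on the marker list, was not matched by symbol. Alternatives were unscaled FPKM, a pseudocount of 1 or 0.01, a mean of at least 5 FPKM (10344 genes) or no such limit (30252), both blocks, no trend, only the groups compared, the 25 genes with a median transcript of 300 kb or more, and each culture left out. As the labels of replicate 1 are written in another style, values within replicate 1 and within replicates 2 and 3 were added after seeing the data. Numpy 2.4.6, pandas 2.3.3 and matplotlib 3.10.9 were used in Python 3.11.15.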

Additional observations from a re-analysis of the deposited data

How the results depend on the processing

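The 0 calls of the N/C change among the 36 genes for TPR A, TPR D and both held under each alternative run, and the median stayed below 0. The number of genes called in either direction in control cells was 9 to 17 when a culture was left out (25.2% to 40.0% of all genes). The median was 0.41 to 0.64. In TPR A cells this number was 3 to 9 over the cultures left out (the 9 include CDK14, cytoplasmic, without control replicate 2). It was 5 with no minimum of FPKM and 5 within replicates 2 and 3, which was added after the data were seen. The share of all genes fell as well. It was 28.4% in the main fit, 10.7% without TPR A replicate 2 (3 of the 36 genes) and 32.6% without control replicate 2 (9 of the 36). With no minimum of FPKM it was 12.4%, and within replicates 2 and 3 it was 15.9%. For the total change with TPR D, 2 genes were called with FPKM as deposited, with no minimum and with the replicate block (FTO and COG5 each time), and 0 with a minimum mean of 5 FPKM, with only the groups compared and within replicates 2 and 3. Over all genes 0.828% were called with FPKM as deposited, 0.499% with no minimum and 3.16% with the replicate block. Leaving out a culture gave 0 to 1, where 0.212% to 0.78% of all genes were called. The median of the total change with TPR D was -0.77 within replicate 1. With the replicate number as a block, which the labels do not tie to a shared batch and which correlated at -0.26 to 0.292 between control and TPR libraries other than TPR A total (TPR A with TPR D at -0.0669 to 0.513 in total, 0.131 to 0.266 in nuclear and 0.398 to 0.597 in cytoplasmic/ER libraries), 3 genes were called in total RNA for both shRNAs (ATXN1 higher, EXOC4 and FTO lower), 1 in the nuclear (FBXL17 lower) and 1 in the cytoplasmic/ER fraction (ATXN1 higher). For both shRNAs the block called 3.83% of all genes in total, 2.18% in nuclear and 2.37% in cytoplasmic/ER RNA. Without it these shares were 1.14%, 0.808% and 0.643%, so the block raised the calls over all genes too. The block changed no other call on a change against control. In the cytoplasmic/ER fraction 0 to 1 genes were called when a culture was left out (0.137% to 0.63% of all genes). The N/C change of FHIT ran from -0.07 (without TPR A replicate 1) to 0.45 and was -0.17 within replicates 2 and 3, and that of IMMP2L ran from -0.01 (without control replicate 2) to 0.35. The causes were not tested. Depth limits FHIT most, with about 83 to 344 reads per library.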

Other observations

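NBEA, a protein of vesicle traffic in neurons, fell under the minimum of 1 FPKM. Fitted with no minimum, its log2 N/C ratio in control cells was 1.49 (standard error 0.35, limma adjusted p = 0.00398) and in TPR D cells 1.22 (standard error 0.35, limma adjusted p = 0.0194). By culture the ratio was 1.51, 1.79 and 1.25 in control, 0.72, 1.13 and 0.89 in TPR A and 1.1, 1.51 and 1.11 in TPR D cultures, so that TPR A lay below the controls and TPR D overlapped with them. Its cytoplasmic/ER values rest on about 54 to 184 reads per library.

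All protein-coding genes of 300 kb or more were also classed by coding length, and FHIT and IMMP2L are among those with less than 1 kb. In control cells 14 of these 40 genes were called cytoplasmic and 0 nuclear, with a median log2 N/C ratio of -0.44. Neither FHIT nor IMMP2L was among the 14. Of the 125 genes with 4 kb or more 80 were called nuclear and 3 cytoplasmic, with a median of 1.07. These too include genes of the set described above. Over all genes 20.2% were called nuclear and 19.2% cytoplasmic. Genes under 50 kb with less than 1 kb of coding sequence (3163) had a median of -0.59 and those with 4 kb or more (159) one of 0.56. Under TPR depletion the median N/C change was -0.06 in the first and -0.31 in the second class of long genes, and 0.20 and -0.03 in the 2 classes of short genes. None of these genes was called in the N/C change (0.0% of all genes). The values by coding length include the culture labelled control replicate 2. In control replicates 1, 2 and 3 the median ratios were -0.43, -0.35 and -0.51 in the first and 1.05, 1.31 and 0.76 in the second class of long genes. In the classes of short genes they were -0.54, -0.71 and -0.52 with less than 1 kb, and 0.60, 0.44 and 0.63 with 4 kb or more.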
